A study of Mus musculus with 15 samples.

Results

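The genes described here encode the proteins of the cytosolic ribosome, the machine that reads mRNA in the cytoplasm. The members were all probe sets of the mouse array whose annotation holds exactly 1 gene symbol of the form used for ribosomal proteins of the large subunit (Rpl), the small subunit (Rps), the stalk (Rplp) or the laminin receptor protein Rpsa, without pseudogenes. This gave 60 genes, 37 of the large and 23 of the small subunit, out of 22206 probe sets tested, of which 19572 carry 1 symbol. No member had more than 1 probe set. Other ribosomal protein genes, for example Rplp2, Rps2 and Rps27, were not analysed here.

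The data are liver RNA levels on Clariom S arrays, 15 in all, with 3 arrays in each of 5 groups. All mice were C57BL/6 animals that carried a human gut microbiota, and no group carried an engineered allele. The groups drank 10% fructose with sodium benzoate, 10% fructose with sodium nitrite, 10% fructose with potassium sorbate, 10% fructose alone, or water, and the preservatives were dosed at the highest daily intake estimated for people in Europe. Treatment began at 3 weeks of age and lasted 11 weeks, so the mice were 14 weeks old when it ended, although 11 weeks is the age on the labels. On housing, the labels name plastic isolators and the methods name airtight cages under positive pressure for the experiment. Each array holds RNA of a separate mouse. The liver is a mixed tissue, and in such bulk RNA fewer cells of a type cannot be told apart from less RNA per cell.

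A ribosome consists of a large subunit, which joins amino acids, and a small subunit, which decodes the mRNA, and each holds ribosomal RNA and many proteins that are needed in equal numbers. The genes of these proteins are spread over the genome but share promoter features, and their mRNAs begin with a run of C and T letters, the TOP motif, through which the kinase mTOR and the binding protein Larp1 control their translation and storage. Hepatocytes, which make most plasma proteins, carry many ribosomes. Many ribosomal protein genes have near-identical processed pseudogenes, so a probe set may also read copies of its gene.

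The start regions of 8 members are shown because 5 of them (Rpl39, Rps10, Rpl35a, Rpl27, Rps7) were among the 6 largest falls with fructose and 3 (Rpl4, Rpl6, Rpl23) did not pass the test. Each line holds 100 bases before and 30 bases after the start annotated by RefSeq (build GRCm38.p6), 5′ to 3′ on the strand of the gene, and capitals mark CGGAAG, the core of the site of the factor GABP, or its reverse complement CTTCCG. For Rpl35a the first of 3 listed starts was used.
Rpl39 (chrX:37085193-37085322, minus strand): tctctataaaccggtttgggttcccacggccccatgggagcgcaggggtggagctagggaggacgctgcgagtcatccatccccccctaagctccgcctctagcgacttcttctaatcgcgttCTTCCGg
Rps10 (chr17:27635215-27635344, minus strand): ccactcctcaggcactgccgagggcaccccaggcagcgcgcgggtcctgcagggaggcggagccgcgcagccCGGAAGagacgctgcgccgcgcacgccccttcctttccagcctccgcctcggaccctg
Rpl35a (chr16:33056353-33056482, plus strand): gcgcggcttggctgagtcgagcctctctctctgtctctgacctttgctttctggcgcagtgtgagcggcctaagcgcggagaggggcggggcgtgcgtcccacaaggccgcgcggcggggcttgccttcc
Rpl27 (chr11:101442145-101442274, plus strand): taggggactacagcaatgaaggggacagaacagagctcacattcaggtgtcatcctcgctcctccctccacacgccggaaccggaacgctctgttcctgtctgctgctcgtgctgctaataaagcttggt
Rps7 (chr12:28635924-28636053, minus strand): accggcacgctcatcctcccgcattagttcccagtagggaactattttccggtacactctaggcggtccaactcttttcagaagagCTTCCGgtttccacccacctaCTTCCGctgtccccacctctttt
Rpl4 (chr9:64173287-64173416, plus strand): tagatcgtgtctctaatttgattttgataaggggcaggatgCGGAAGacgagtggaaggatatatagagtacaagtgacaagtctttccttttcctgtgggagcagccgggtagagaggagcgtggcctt
Rpl6 (chr5:121204401-121204530, plus strand): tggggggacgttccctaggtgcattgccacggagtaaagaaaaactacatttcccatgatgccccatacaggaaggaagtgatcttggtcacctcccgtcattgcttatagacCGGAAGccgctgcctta
Rpl23 (chr11:97782410-97782539, minus strand): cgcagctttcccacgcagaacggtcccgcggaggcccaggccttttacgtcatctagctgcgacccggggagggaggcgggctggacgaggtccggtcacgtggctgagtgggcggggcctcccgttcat

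In the 130 bases shown, CGGAAG is present in Rpl39, Rps10, Rps7, Rpl4 and Rpl6 and absent from Rpl35a, Rpl27 and Rpl23. Over the full windows of 300 bases used in the following counts, Rpl23 also holds it, whereas Rpl35a and Rpl27 do not. No CGGAAG was found for Rpl9, the last of the 6 largest falls. However, the listed windows of Rpl9 and Rpl28 have an unusual base order, as if a stretch were not on the stated strand. They were therefore not printed and cannot show that a motif is absent, but both were kept in the following shares and medians. Of the 60 members, 47 matched the RefSeq table, with 58 start windows of 300 bases. CGGAAG on either strand was present in 55.2% of these windows, against 16.9% of the 32851 windows of all genes. AAGATGG, the core of the site of the factor YY1, which can share the letters AAG with CGGAAG, was present in 15.5% of the members' windows, against 6.34% of all windows. GGGCGG, the core of the Sp1 site, was present in 53.4% against 35.7%. A run of 6 or more C or T within 10 bases of the start, where a TOP motif lies, was found in 41.4% against 21% of all windows. All 4 sequence features were thus more frequent in the members' windows. The median log2 difference between fructose and water was -1.17 for the 30 members with CGGAAG and -1.07 for the 17 without, -1.45 for the 7 with AAGATGG and -1.04 for the 40 without, and -1.11 for the 24 with a C or T run and -1.22 for the 23 without.

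Several measures of the whole array separated the water arrays from all others, and they are given before the results. The 4 hybridization controls, labelled fragments added to every array, averaged 12.16 ± 0.22 (log2 signal, SD, n = 3) with benzoate, 11.86 ± 0.16 with nitrite, 11.97 ± 0.25 with sorbate, 12.07 ± 0.14 on fructose and 13.02 ± 0.33 on water. The poly-A controls, bacterial RNAs added to the samples, averaged 8.99 ± 0.20 on fructose and 10.12 ± 0.36 on water. The median of the negative control probes was 6.44 ± 0.10 on fructose and 5.61 ± 0.02 on water. Genes with very long transcripts moved opposite to the members, with a median difference of 1.79, fructose minus water. Of 21 measured, 20 were higher in fructose livers (95.2%, against 11.8% of all probe sets). Y-linked genes averaged 3.39 to 4.17 on the 3 sorbate arrays and 3.51 and 3.57 on benzoate arrays 3 and 2. On the other arrays they averaged 9.37 to 10.0. By this measure the low arrays came from female mice and the others from male mice. Sex is missing from the labels. The paper states that each treatment group held males and females in equal number, without naming the sex of the arrayed mice. The correlation between arrays was 0.965 to 0.989 within groups and 0.904 to 0.988 between groups.

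To examine how fructose changed the ribosomal protein genes, the fructose livers were compared with the water livers. Levels of the members were lower with fructose. With limma and Benjamini-Hochberg adjustment over all probe sets, 47 of the 60 members (78.3%) fell and 0 rose, against 12.7% of all tested probe sets that fell and 11.8% that rose. Of the members, 32 fell by more than 2-fold, a threshold at which all probe sets were not counted. The median difference of the members was -1.12 on the log2 scale, a 2.17-fold lower level, with the middle 50% of members between -1.44 and -0.73, while the median of all tested probe sets was -0.12. The 3 fructose arrays lay below the 3 water arrays without overlap for 52 members, against 20.9% of all probe sets, and 58 of the 60 differences were negative. Since ribosomal protein mRNAs are abundant, the count was also taken among probe sets with a mean log2 signal over 12, where 31 of 38 members (81.6%) fell, against 17.7% of the 1519 probe sets of that class.

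The fall was even across mice. The median of the 60 members, taken relative to the mean of the water arrays, was -1.01, -1.09 and -1.12 (log2) on the 3 fructose arrays and 0.01, -0.03 and 0.02 on the 3 water arrays. The median SD of a member within groups was 0.31, near the 0.35 over all tested probe sets. Within the members this SD ran from 0.13 for Rpl4, a protein of the exit tunnel, to 0.64 for Rpl39l.

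**Figure D1:**
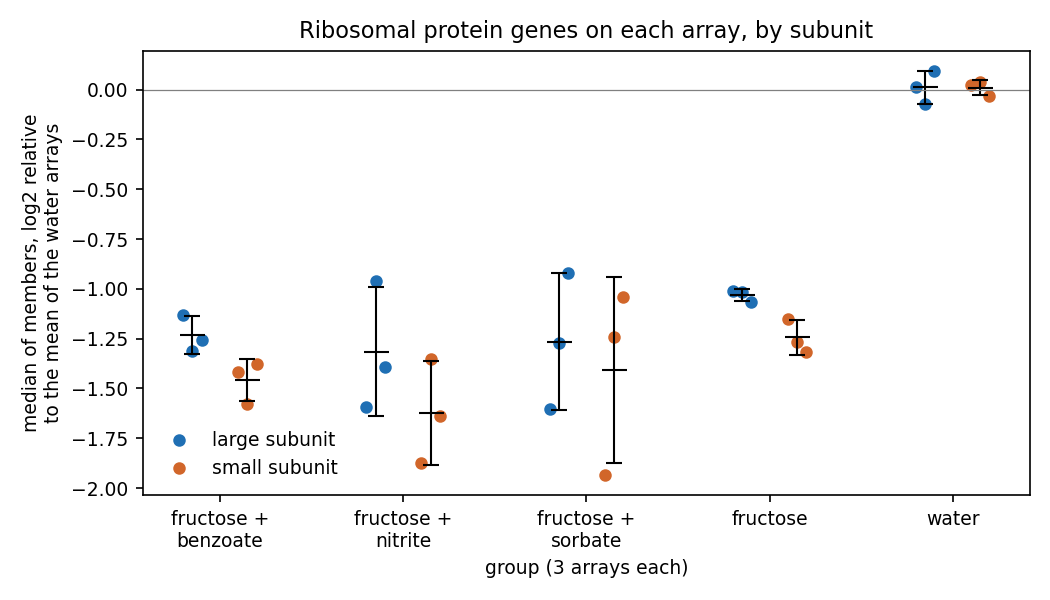
The median log2 level of the 37 large (blue) and 23 small (orange) subunit genes on each array relative to the mean of the water arrays, for 5 groups of 3 arrays; black lines show the group mean and SD. The water arrays sit near 0, all other arrays between -0.92 and -1.94, and the sorbate arrays are the most widely spread.

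The 6 largest falls came from both subunits. Rpl39, a small protein that lines the exit tunnel for the growing chain, had log2 signals of 12.84, 12.07 and 12.35 on the fructose arrays and 14.66, 14.66 and 14.15 on the water arrays. This was a 4.20-fold lower level (log2 difference -2.07, SE 0.26, adjusted p = 7.12e-05). Rps10, a protein of the small subunit head that is marked with ubiquitin when ribosomes collide, had 11.02, 10.82 and 10.89 on fructose and 13.02, 13.31 and 12.32 on water. Rps10 fell 3.91-fold (log2 difference -1.97, SE 0.27, adjusted p = 0.000117), and its fructose values lay within a narrow band while the water values were spread more widely. Rpl35a, needed to mature the RNA of the large subunit, had 13.07, 12.85 and 12.34 on fructose and 14.67, 14.89 and 14.37 on water, and fell 3.70-fold (adjusted p = 0.000173). Rpl35a and Rpl27 are both among the genes mutated in Diamond-Blackfan anaemia in people. Rpl27 had 10.87, 10.67 and 10.45 on fructose and 12.82, 12.62 and 11.82 on water and fell 3.38-fold (adjusted p = 0.000254).

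Rpl9, a large subunit protein near the site where elongation factors bind, had 13.19, 12.94 and 13.04 on fructose and 14.81, 14.80 and 14.66 on water, a 3.25-fold lower level (adjusted p = 5.74e-05). Rps7, which is required to mature the RNA of the small subunit, had 14.33, 14.25 and 14.02 on fructose and 16.01, 15.91 and 15.70 on water and was 3.19-fold lower (adjusted p = 0.000285). In all 6 genes the fructose and water arrays did not overlap. The next members in size of the fall were Rps14 (-1.66) and Rps24 (-1.64), both of the small subunit.

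**Figure D2:**
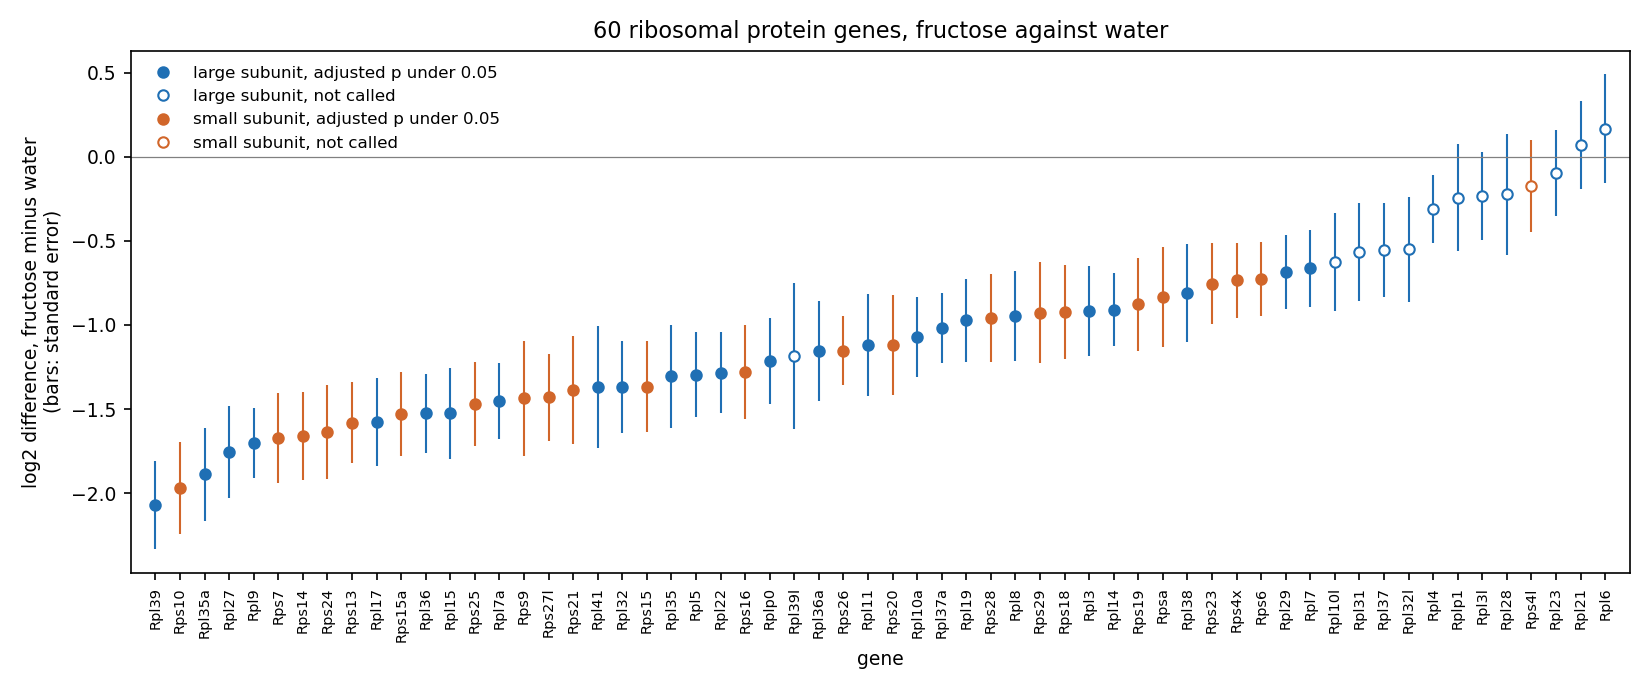
The log2 difference of fructose minus water for each of the 60 genes, ordered by size, with its standard error as a bar; blue marks the large and orange the small subunit, and filled points have an adjusted p under 0.05. Differences run from -2.07 for Rpl39 to 0.17 for Rpl6, and 12 of the 13 open points are large subunit genes.

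At the other end, 13 members did not pass the test. Rpl6, a large subunit protein, had 12.75, 13.21 and 13.21 on the fructose arrays and 13.02, 12.17 and 13.48 on the water arrays (log2 difference 0.17, SE 0.32, adjusted p = 0.743). Rpl21 had 14.14, 14.13 and 14.16 on fructose and 13.89, 13.86 and 14.48 on water (0.07, adjusted p = 0.876), and its difference became -0.013 under quantile normalization. In both genes the water arrays spanned the fructose arrays, and both differences turned negative without water array 2. Rpl23, which lies at the interface of the subunits and can bind the p53 regulator Mdm2, had 14.99, 15.11 and 14.98 on fructose and 15.19, 14.74 and 15.44 on water (-0.09, adjusted p = 0.818). Rpl28 had 11.80, 11.42 and 11.76 on fructose and 11.65, 11.53 and 12.47 on water (-0.22, adjusted p = 0.692). The differences of Rpl23 and Rpl28 turned positive, at 0.065 and 0.070, without water array 3.

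Rpl4 also missed the threshold, yet its groups did not overlap. It had 14.54, 14.66 and 14.68 on fructose and 14.95, 14.78 and 15.08 on water (log2 difference -0.31, SE 0.20, adjusted p = 0.280). Its SD within groups was the smallest of all members, so a small difference separated the arrays. Rpl31 (-0.57, adjusted p = 0.166) and Rpl37 (-0.55, adjusted p = 0.155), a zinc-binding protein, were further members of the large subunit whose groups did not overlap and which were not called.

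**Figure D3:**
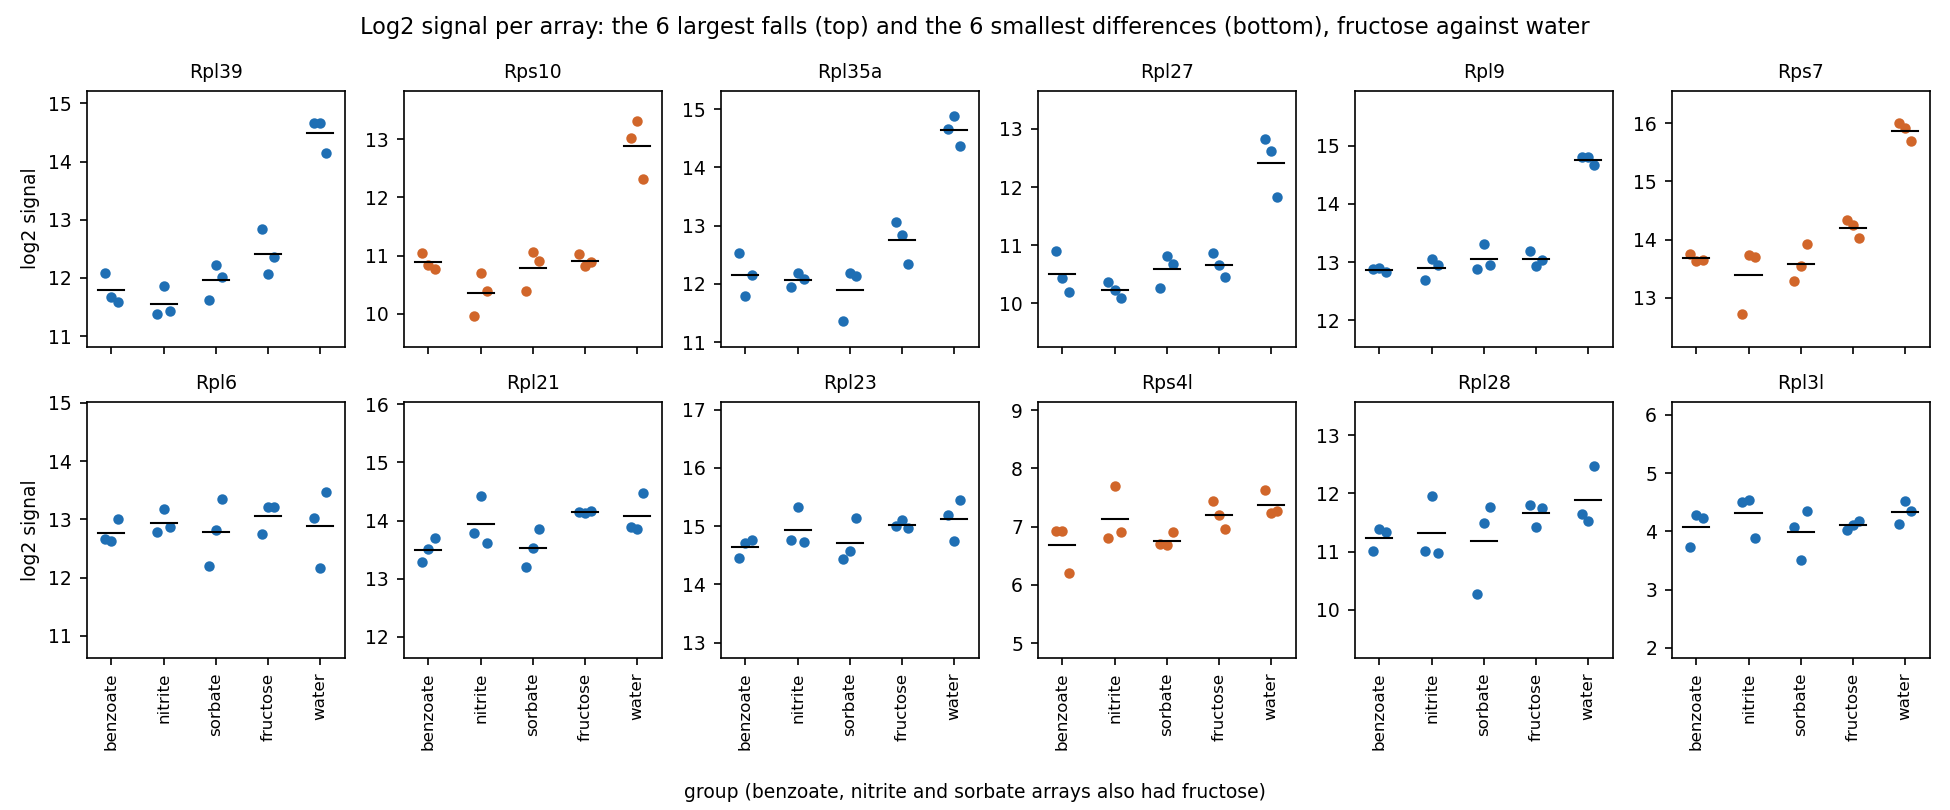
Log2 signal on each array (points) and the group mean (line) for the 6 genes with the largest falls (top row) and the 6 with the smallest differences (bottom row), fructose against water; blue is the large and orange the small subunit, and the benzoate, nitrite and sorbate groups also drank fructose. In the top row all arrays other than water lie below all water arrays, and in the bottom row the groups overlap for most genes.

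The comparison of the subunits showed more calls in the small one. Of the small subunit genes, 22 of 23 (95.7%) fell, with a median difference of -1.28. Of the large subunit genes, 25 of 37 (67.6%) fell, with a median of -1.02. The large subunit median exceeded the small one by 0.26 (log2). On single arrays, relative to water, the large minus the small subunit median was 0.14, 0.25 and 0.25 on the fructose arrays and -0.01, -0.11 and 0.13 on the water arrays, so the fructose arrays lay just above the highest water array. Without water array 2 the gap was 0.13, and with the hybridization controls as a covariate it was 0.094. As a description of a list chosen by name, it carries no test.

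The gap was narrower without gene copies. Of the members, 6 have symbols that end in l and are near copies of other ribosomal protein genes, some of them known from testis or muscle, and 4 of these are counted as large subunit genes. Only 1 of the 6 passed the test. Without them, 25 of 33 large subunit genes (75.8%) and 21 of 21 small subunit genes fell, with medians of -1.07 and -1.28, and the gap was 0.21. The leaving out of these copies was chosen after the data were seen.

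The copies and their counterparts were compared by their own differences. Rpl3, which reaches into the catalytic centre of the large subunit, had 12.29, 12.47 and 12.75 on fructose and 13.96, 13.06 and 13.24 on water (log2 difference -0.92, SE 0.27, adjusted p = 0.0183), while Rpl3l, its muscle counterpart, lay below the median of the negative controls on all 15 arrays and gives no fold. The call for Rpl3 was lost without water array 1 (-0.65, adjusted p = 0.0969), without fructose array 1 and without fructose array 2. Rpl39l, a copy of Rpl39 known from testis, lay below that median on 12 arrays, among them all 3 fructose arrays and 1 water array, and its groups overlapped, since water array 3 lay within the range of the fructose signals (5.29 to 5.66). Rpl39l gives no measured fold, since water array 3 lay below the negative control median as well. The fit to its signals did not pass (adjusted p = 0.0546). Rpl10l, the testis copy of Rpl10, had 7.92, 7.87 and 7.48 on fructose and 8.39, 8.67 and 8.08 on water (-0.63, adjusted p = 0.126). Rpl32l had 9.62, 9.61 and 9.70 on fructose and 9.80, 10.24 and 10.53 on water (-0.55, adjusted p = 0.210). Neither of these passed the test although their groups did not overlap. Rps4l, a copy of Rps4x, had 7.45, 7.20 and 6.95 on fructose and 7.62, 7.23 and 7.28 on water (-0.17, adjusted p = 0.680), whereas Rps4x fell (-0.73, adjusted p = 0.0228).

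Rps27l was the copy that fell. This small subunit protein, whose gene is a target of p53, had 13.53, 13.32 and 13.31 on fructose and 14.62, 15.21 and 14.62 on water, a 2.69-fold lower level (adjusted p = 0.000748). Rpl22, an RNA-binding protein of the large subunit, had 14.19, 13.73 and 13.84 on fructose and 14.89, 15.31 and 15.40 on water, a 2.43-fold lower level (adjusted p = 0.00102). Its copy Rpl22l1 falls outside the naming rule and fell as well, with 10.17, 9.61 and 9.89 on fructose and 12.71, 12.01 and 12.27 on water (log2 difference -2.44, SE 0.29, adjusted p = 4.89e-05). Both members of this pair were thus lower with fructose on every array.

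Rpl7 and its copy Rpl7l1 also fell together. Rpl7, a large subunit protein that contacts RNA, had 15.02, 15.11 and 15.05 on fructose and 15.78, 15.64 and 15.74 on water (-0.66, adjusted p = 0.0436). Rpl7l1 had 11.34, 10.93 and 10.71 on fructose and 12.23, 12.51 and 11.89 on water (-1.22). Rpl36a had 11.87, 11.99 and 12.01 on fructose and 12.99, 12.99 and 13.34 on water (-1.15, adjusted p = 0.00907). Its copy Rpl36al had 11.44, 11.20 and 10.90 on fructose and 12.03, 11.54 and 12.18 on water and did not pass (-0.74, adjusted p = 0.0761). Of the 5 ribosomal proteins measured outside the naming rule, 4 fell (80%, against 12.7% of all probe sets). Among them were Fau, which encodes a small subunit protein fused to a ubiquitin-like protein (-0.95), and Rps3a1 (-0.73).

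Of the stalk proteins, 1 of the 2 measured passed the test. Rplp0, which forms the base of the stalk that recruits elongation factors, had 11.55, 11.28 and 11.43 on fructose and 12.63, 12.47 and 12.81 on water, a 2.32-fold lower level (adjusted p = 0.00232). Rplp1, which sits on that base, had 15.52, 15.14 and 15.43 on fructose and 15.14, 15.48 and 16.20 on water, with overlapping groups (-0.24, adjusted p = 0.613), and its difference was 0.053 without water array 3. Rps6, the protein that S6 kinase phosphorylates downstream of mTOR, had 15.38, 15.37 and 15.42 on fructose and 16.16, 15.89 and 16.30 on water. Rps6 was lower on every fructose array (-0.73, adjusted p = 0.0221), but its adjusted p ranged up to 0.0659 when a fructose array or water array 1 was left out. Rpl5 (-1.29) and Rpl11 (-1.12), which together with a small ribosomal RNA bind Mdm2, both fell, as did Rps19 (-0.88), the gene most often mutated in Diamond-Blackfan anaemia, and Rpsa (-0.83).

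The calls against water rested on comparing arrays that also differed in the control measures. With the hybridization controls as a covariate, 0 members were called and 0 of all probe sets. The median difference of the members was -1.30, and their median SE was 0.48 in place of 0.27. Because the hybridization controls of the water arrays lay above those of all other arrays, treatment and hybridization level cannot be told apart. Without water arrays 1 and 2, 16 members were lower, with a median of -1.16, against 2.27% of all probe sets. That fit takes the spread from the other groups, so the 1 remaining water array is assumed to vary as they do.

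**Figure D4:**
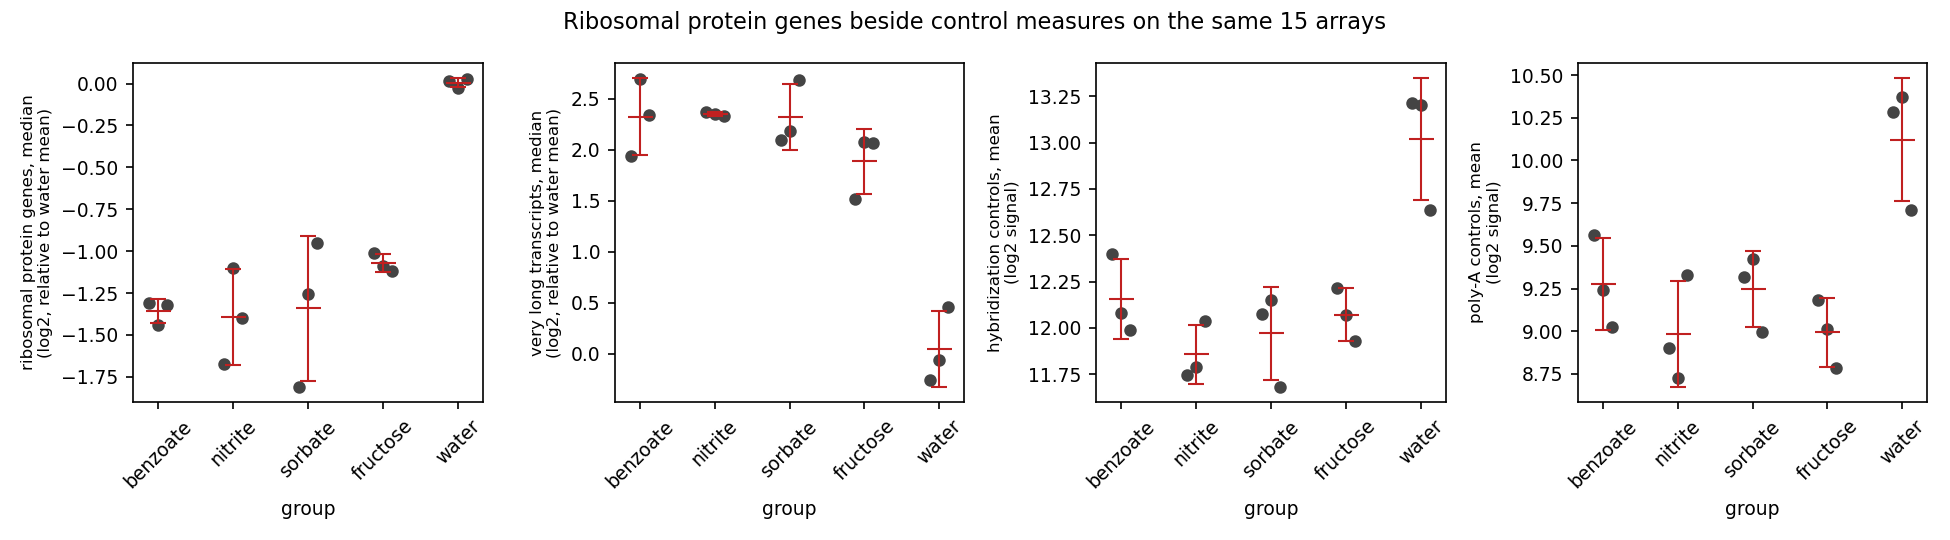
Measures of each of the 15 arrays (1 point per array) with the group mean and SD (red), from left the median of the 60 ribosomal protein genes and the median of the very long transcripts, both log2 relative to the mean of the water arrays, and the mean log2 signals of the hybridization and the poly-A controls. All 4 measures set the water arrays apart, with the long transcripts moving opposite to the ribosomal protein genes.

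Of 46 measured genes of ribosome assembly and ribosomal RNA synthesis, 13 rose (28.3%, against 11.8% of all probe sets), 5 fell (10.9%, near the 12.7% of all) and 28 did not pass, with a median difference of 0.32. Among the rises were Ddx21 (2.25), a nucleolar helicase, Polr1a (2.21), the largest subunit of RNA polymerase I, and Ncl (1.64), which encodes nucleolin. The largest fall was that of Myc (-2.89), a transcription factor that drives ribosome production, followed by Nip7 (-1.31) and Nhp2 (-1.16), 2 small assembly proteins.

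Other genes whose mRNAs carry a TOP motif were divided, with 3 higher (20%, against 11.8% of all probe sets), 5 lower (33.3%, against 12.7% of all) and 7 not called of 15 measured and a median of -0.45. Eef1b2, an exchange factor of translation elongation (-1.92), and Eif3k, a subunit of an initiation factor (-1.04), fell. Pabpc1, the poly-A binding protein (1.95), and Eef2, the translocation factor (1.20), rose. Eef1a1, an elongation factor under TOP control, showed a difference of -0.09 with overlapping groups. Of 23 measured regulators of TOP mRNAs and of mTOR signalling, 9 rose, 2 fell and 12 did not pass. The rises were 39.1% and the falls 8.7%, against 11.8% and 12.7% of all probe sets. Mtor (2.55), Tsc2 (2.14) and Larp1 (1.85) rose, and the cap-binding protein Eif4e (-1.62) and the small lysosomal anchor Lamtor1 (-1.29) fell. Rptor, which encodes the mTOR partner raptor, lay below the median of the negative controls on all 3 water arrays and on 1 fructose array. Its fructose mean of 6.73 was 2.18-fold above that median on water. The median itself was 5.61 on water and 6.44 on fructose, so Rptor gives no measured fold. The very long transcripts rose on the same arrays, and the part of transcript length in these differences was not tested.

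Cell type markers were followed as a check of the tissue. Of 8 hepatocyte markers 2 rose and 1 fell, and of 8 sinusoidal endothelial markers 4 rose and 1 fell. Of 8 stellate cell markers 3 rose and 1 fell. The rise of Col1a1 (0.81) rests on signals near the negative control median, with 2 fructose arrays and 1 water array under it. Over all probe sets 11.8% rose and 12.7% fell, so the 12.5% that fell in each of these lists was near that share. None of the Kupffer cell markers rose and 4 of 8 fell, led by Clec4f (-1.49), the lectin that defines these macrophages, with a median of -0.70. Of the lymphoid markers 2 of 9 fell, of the neutrophil markers 2 of 7, of the cholangiocyte markers 1 of 4 and of the erythroid markers 0 of 2, and none of these rose. Those calls (Cd3g, Gzma, Camp, Ngp and Epcam) rest on signals under the median of the negative controls on all 3 fructose arrays, and for Cd3g, Camp and Ngp also on 2 of 3 water arrays, so they give no measured fold. The part of these cells in the fall of the ribosomal protein genes was not tested.

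The livers with fructose and a preservative were also lower than water. These comparisons use the same water arrays as the comparison of fructose with water, so their likeness to it is no separate evidence. With benzoate 50 of 60 members fell and 0 rose (18.7% and 15.6% of all probe sets), with a median of -1.37. With nitrite 52 fell and 0 rose (18.8% and 16% of all), with a median of -1.39. With sorbate 50 fell and 0 rose (19.8% and 16.7% of all), with a median of -1.33. Of the members, 43 fell by more than 2-fold with benzoate, 43 with nitrite and 41 with sorbate, again without a count over all probe sets. Against water, all probe sets together had a median of -0.19 with benzoate, -0.15 with nitrite and -0.20 with sorbate.

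In every comparison with water the large subunit had the smaller median fall, also in the 3 preservative groups. The median was -1.27 for the large and -1.48 for the small subunit with benzoate, -1.30 and -1.69 with nitrite, and -1.31 and -1.41 with sorbate. On single arrays the large minus the small subunit median was 0.29, 0.26 and 0.12 with benzoate and 0.28, 0.39 and 0.25 with nitrite. With sorbate it was 0.33, -0.03 and 0.12. Benzoate array 3 and sorbate arrays 2 and 3 thus lay within the range of the water arrays (-0.11 to 0.13). Rpl39 was the largest fall with benzoate (-2.70) and with nitrite (-2.93), and Rpl35a was the largest with sorbate (-2.75). Rpl4, Rpl6, Rpl21, Rpl23, Rpl28, Rpl3l and Rps4l did not pass the test in any of the 4 comparisons with water. With the hybridization controls as a covariate, 0 members were called in each preservative group. With the Y-linked mean as a covariate, 21 members were called for sorbate against water, 39 for benzoate and 52 for nitrite. In that fit only the benzoate group held arrays of both high and low Y-linked signal, so the adjustment rests mainly on that group.

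The spread among mice was given by the member median of each array. Relative to water, the median of the members was -1.31, -1.44 and -1.32 on the benzoate arrays, -1.67, -1.10 and -1.40 on the nitrite arrays and -1.81, -1.26 and -0.95 on the sorbate arrays. The group means were -1.36 ± 0.07 with benzoate, -1.39 ± 0.29 with nitrite, -1.34 ± 0.43 with sorbate, -1.07 ± 0.05 on fructose and 0.00 ± 0.03 on water (SD, n = 3 each). The 3 benzoate arrays lay below all fructose arrays, whereas the nitrite and sorbate arrays overlapped with them. Benzoate arrays 2 and 3 also had low Y-linked signals, unlike the fructose arrays.

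To determine whether a preservative changed the ribosomal protein genes beyond fructose, each preservative group was compared with fructose alone. No member passed the adjusted threshold in any of the 3 comparisons. Over all probe sets 0.0135% were called with benzoate, 0% with nitrite and 0.635% with sorbate. At an unadjusted p under 0.05, 14 of the 60 members were lower with benzoate, 11 with nitrite and 10 with sorbate, and 1 was higher with sorbate. Of all 22206 probe sets, 2080 reached that level with benzoate, 1155 with nitrite and 2969 with sorbate. These totals hold both directions and the lower probe sets were not counted apart, so they are no direct match for the lower members.

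Most differences were nonetheless negative. With benzoate 54 of 60 differences were negative (median -0.38, all probe sets -0.03), with nitrite 57 (median -0.35, all probe sets -0.01) and with sorbate 51 (median -0.31, all probe sets -0.03). The preservative arrays lay below the fructose arrays without overlap for 35 members with benzoate (8.98% of all probe sets), 21 with nitrite (7.89% of all) and 18 with sorbate (10.8% of all). The 3 comparisons share the fructose arrays. Without sorbate array 1 the sorbate median was -0.08. Without nitrite array 1 the nitrite median was -0.21, and without nitrite array 2 it was -0.54. The small and large subunits had medians of -0.40 and -0.38 with benzoate, -0.40 and -0.32 with nitrite, and -0.32 and -0.31 with sorbate.

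**Figure D5:**
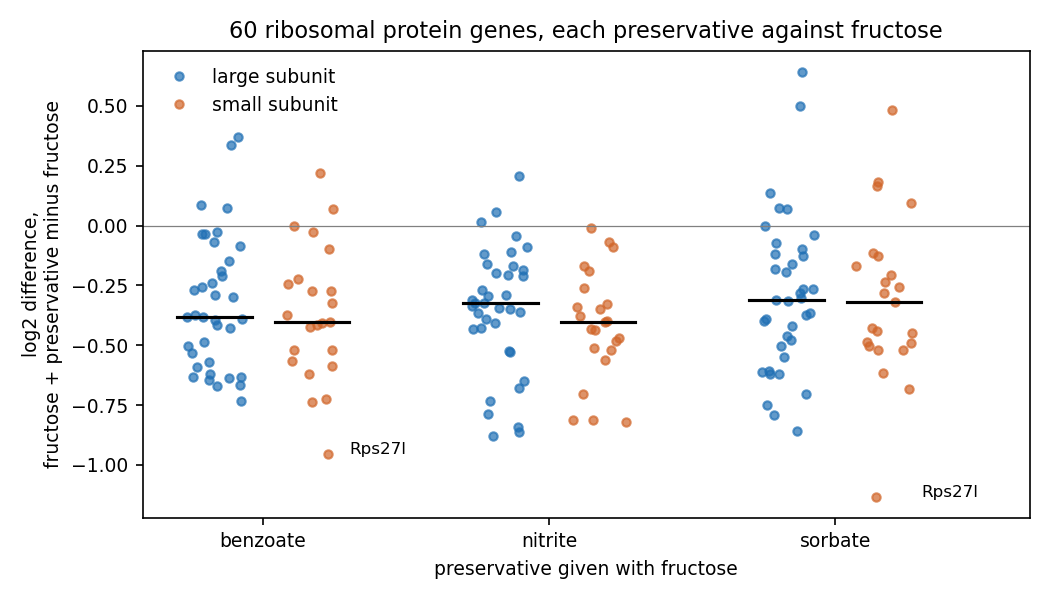
The log2 difference of fructose with a preservative minus fructose alone for each of the 60 genes (points) and the median of each subunit (line), blue for the large and orange for the small subunit. Medians lie between -0.31 and -0.40 in all 3 comparisons, and Rps27l is the lowest point with benzoate and with sorbate.

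Rps27l came nearest to the threshold. It had log2 signals of 12.59, 12.04 and 12.67 with benzoate, 12.28, 12.83 and 12.60 with nitrite and 11.88, 12.38 and 12.50 with sorbate, against 13.53, 13.32 and 13.31 on fructose alone, so all 9 preservative arrays lay below the 3 fructose arrays. The difference was -1.13 (SE 0.26, adjusted p = 0.0538) with sorbate, -0.95 (adjusted p = 0.267) with benzoate and -0.81 (adjusted p = 0.903) with nitrite. For sorbate the call depended on the analysis, since the adjusted p was 0.0323 with quantile normalization and 0.0262 when only the 2 groups were fitted. Rps27l was not called with arrays centred on their median or with the hybridization controls or the Y-linked mean as a covariate. Nor was it called when any single fructose or sorbate array was left out. The sorbate and fructose arrays also differed in Y-linked signal, so sex and sorbate cannot be told apart for this gene.

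Rpl22 behaved alike. It had 13.45, 12.97 and 13.31 with benzoate, 12.71, 13.34 and 13.17 with nitrite and 13.03, 13.06 and 13.29 with sorbate, against 14.19, 13.73 and 13.84 on fructose. The difference was -0.67 with benzoate (adjusted p = 0.416), -0.84 with nitrite (adjusted p = 0.903) and -0.79 with sorbate (adjusted p = 0.146). Rpl5, the Mdm2-binding protein, had 13.20, 13.14 and 13.35 with benzoate, 12.85, 13.77 and 13.06 with nitrite and 12.79, 13.44 and 13.40 with sorbate, against 14.02, 13.87 and 14.00 on fructose. Its groups did not overlap either, and no adjusted p passed (0.396 with benzoate, 0.903 with nitrite and 0.188 with sorbate). Rps23, a protein of the decoding centre, had a difference of -0.73 with benzoate (adjusted p = 0.371) and -0.69 with sorbate (adjusted p = 0.210). Rpl35a differed from fructose by -0.59 with benzoate, -0.68 with nitrite and -0.86 with sorbate, where its adjusted p was 0.171.

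Rpl3 and Rplp0 lay on the other side of fructose. Rpl3 had 12.77, 13.26 and 13.41 with sorbate, against 12.29, 12.47 and 12.75 on fructose, a difference of 0.64 that did not pass (adjusted p = 0.300). Rplp0 had 11.83, 11.62 and 11.91 with benzoate (0.37, adjusted p = 0.708) and 11.63, 12.04 and 12.09 with sorbate (0.50, adjusted p = 0.419), against 11.55, 11.28 and 11.43 on fructose. In both genes these arrays did not overlap with fructose. Rplp0 with nitrite had 10.72, 11.16 and 11.79 and overlapped with fructose (-0.20, adjusted p = 0.970). Against fructose, 3 of 8 Kupffer cell markers rose with sorbate and 0 with benzoate or nitrite. Over all probe sets 0.635%, 0.0135% and 0% were called in either direction with sorbate, benzoate and nitrite. The median difference of these markers was 0.84 with sorbate, 0.87 with benzoate and 0.33 with nitrite, so the counts show no rise particular to sorbate. All 3 Y-linked genes were lower on the sorbate arrays, where they lay below the median of the negative controls. By their Y-linked signals the 3 sorbate mice were female and the 3 fructose mice male. A difference of sex and an effect of sorbate therefore cannot be told apart. With the Y-linked mean as a covariate the sorbate median of the members against fructose was -0.28, with 43 of 60 differences negative and 0 called. The benzoate median against fructose was then -0.30, with 48 of 60 differences negative and 0 called. That adjustment also rests mainly on the benzoate group.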

How the data were processed

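Liver RNA of 15 mice was hybridised to Clariom S arrays. Values are log2 signals per probe set, as deposited by the authors, whose methods state normalization by SST-RMA (Transcriptome Analysis Console 4.0.2). RMA is also listed in the submitters' processing notes, with version 1.4 of the Affymetrix Expression Console. No scanner files were set against them, so the exact scale and centring are not known. The 6640 control probes among 28846 entries were not tested. In R 4.3.3, limma 3.58.1 was fitted with 1 mean per group over all 15 arrays, with Benjamini-Hochberg adjustment over 22206 probe sets, and a gene was called at an adjusted p under 0.05. The fit was tested on simulated data. Precision is set by the number of arrays, which have no read depth. A gene under the median of the negative controls on all arrays of a group was given no measured fold. Members and gene lists were chosen with earlier results of these data known. Single array values are given for the 6 largest falls, the 6 smallest differences, the stalk proteins, Rps6, members with a copy and the lowest p-values against fructose. From each list the 3 largest rises and falls could be named. Other names (Rpl4, Rpl31, Rpl37, Rpl11, Rps19, Rpsa, Eef1a1, Larp1) were chosen after their values were seen. Groups came from the sample labels. Alternatives were other normalizations, filters, variance models, covariates and samples.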

Additional observations from a re-analysis of the deposited data

How the results depend on the processing

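The number of arrays, 3 per group, limits all values. The count of members lower with fructose than with water was 0 when the hybridization controls entered the fit, 16 without water arrays 1 and 2, and 33 to 43 when single arrays were left out. With that covariate the count was also 0 for benzoate, 0 for nitrite and 0 for sorbate against water. It was 21 for sorbate and 39 for benzoate with the Y-linked mean as a covariate. Arrays that were centred on their median gave 40 lower members for fructose, with 2222 lower of 5091 called probe sets in place of 2812 of 5427, and quantile normalization gave 47. Array weights gave 1 call for benzoate against fructose. Rps27l was the 1 call for sorbate against fructose under quantile normalization, without probe sets under the 30th percentile, with trended and robust variances, with array weights and with only the 2 groups compared (adjusted p 0.0147 to 0.0440). The gap between the subunits was 0.094 with the hybridization covariate and 0.13 to 0.34 without single arrays. The cause of these changes was not tested.

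The sign turned for Rpl6 with the hybridization covariate (-1.05), without water arrays 1 and 2 (-0.42) and in the range without single arrays (-0.19 to 0.46), for Rpl21 with quantile normalization (-0.013), the covariate (-0.87), without water arrays 1 and 2 (-0.34) and without single arrays (-0.040 to 0.27), and for Rps4l with the covariate (0.093). Without single arrays the range was -0.29 to 0.065 for Rpl23, -0.40 to 0.070 for Rpl28 and -0.47 to 0.053 for Rplp1. None of these genes was called. Of the other settings of single named genes, 345 gave the same call, 25 lost it and 5, those of Rps27l above, gained it. Replicate numbers were not taken as pairs of mice. Deviations of arrays with the same number correlated at -0.08 to 0.22, and with different numbers at -0.19 to 0.16. The correlation was over 0.1 for 5 of 30 pairs with the same number and 4 of 60 with different numbers. Whether arrays of the same number shared a batch was not tested. With the replicate block 46 members fell with fructose against water, 45 of them among the 47, and 0 were called for any preservative against fructose.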
